A study of Homo sapiens with 62 samples.

Results

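MYC network factors are the MYC proteins and the related transcription factors that pair with, or compete for, the same partners. MYC and MYCL dimerise with MAX and activate transcription at E-boxes, of which CACGTG is the usual form. MXD1, MXD4, MXI1, MNT and MGA also pair with MAX and are mostly known as repressors on the same DNA sites. MLX is the partner of MLXIP (MondoA), a nutrient sensor whose best known targets are TXNIP and ARRDC4. MYC RNA is short-lived, so its level follows changes in transcription within hours.

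The genes described are MYC, MYCL, MAX, MXD1, MXD4, MXI1, MNT, MGA, MLX and MLXIP, taken by name from the tables of the study. All 10 names were found among 29794 genes.

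The cells were AsPC-1, a pancreatic ductal adenocarcinoma line of the classical subtype, and T3M-4, a line of the basal-like subtype. All groups, the controls included, carried the genotype FKBP12-F36V-FLAG-KLF5_sgEndogenousKLF5, in which the cell's own KLF5 gene was disrupted and a lentiviral, degron-tagged KLF5 supplied in its place. KLF5 is a zinc finger transcription factor of epithelial cells. SLAM-seq was used: the cells took up 4-thiouridine for 2 h, and reads of RNA made in that time carry T>C conversions. T>C reads are therefore a measure of new RNA, all reads a measure of the RNA present, and the labelled share is the percentage of a gene's reads with a conversion.

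KLF5 was degraded with dTAGv-1 (dTAG) and controlled with its inactive analogue dTAGv-1-NEG (NEG), each in 10 AsPC-1 libraries of 3 experiments. CB-6644 inhibits the RUVBL1/2 ATPase and was set against its solvent DMSO in 5 libraries per group at 4 h (2 experiments) and 4 per group at 12 h. NVP-2 inhibits the transcription kinase CDK9 and was given to 4 AsPC-1 libraries for 4 h. T3M-4 received the same 5 treatments for 4 h, with 4 libraries per group from 2 experiments that are shown apart throughout. Libraries are named by experiment and library, so that 2.1 is the first library of the second experiment. The study describes biological replicates within independent experiments, and libraries of 1 experiment share its conditions, so p-values measure the spread between libraries of few experiments.

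Totals of all reads per library were 82676553 to 200298262 for AsPC-1 and 111132257 to 244524608 for T3M-4. T>C totals were 2240998 to 18311982 and 3714015 to 27982537. By HNF4A and TP63 each line showed its labelled subtype. HNF4A had 12.4 to 22.2 CPM (a gene's reads scaled to the library's total) of all reads in the AsPC-1 DMSO libraries and at most 0.474 in T3M-4. TP63 had 18.3 to 28.7 in T3M-4 and at most 0.121 in AsPC-1. GATA6, FA2H and MYO1A were higher in AsPC-1, and KRT4, KRT5, KRT17 and S100A2 in T3M-4. FA2H still had 5.31 to 11.9 in T3M-4 and S100A2 15.3 to 56.7 in AsPC-1. MUC1 overlapped, with 18.1 to 263 in AsPC-1 and 16.2 to 48.4 in T3M-4. The AsPC-1 libraries were clustered by their residual expression in T>C reads into a chosen number of 3 sets, of 17, 17 and 8. These sets cross the treatment groups. They were made from the same reads that are tested below, so fits with them are no independent support for a change. KLF5 RNA was 261 to 310 all-read CPM in T3M-4 dTAG libraries against 146 to 165 in NEG, but the degrader acts on the protein, which was not measured here. In bulk samples, fewer cells with an RNA and less of it per cell cannot be told apart.

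The genes lie on 9 chromosomes (GENCODE v44, GRCh38), that of MYC given further on. MYCL is at chromosome 1, 39895428 to 39902256. MAX, their common partner, is at chromosome 14, 65006174 to 65102695. Of the MAX-binding repressors, MXD1 is at chromosome 2, 69897688 to 69942945, MXD4 at chromosome 4, 2247432 to 2262109, and MXI1 at chromosome 10, 110207605 to 110287365. MNT is at chromosome 17, 2384073 to 2401104, and MGA at chromosome 15, 41621134 to 41773081. MLX is at chromosome 17, 42567072 to 42573239, and MLXIP at chromosome 12, 122078756 to 122147344. MYCL, MAX, MXD4 and MNT are on the minus strand and the other 6 on the plus strand. The reads were counted over the annotated 3′UTR exons of each gene.

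Promoter windows of 300 bases, 250 before and 50 after a RefSeq start (GRCh38.p14), were at hand for 9 of the 10 genes, 14 windows in all. They were searched on both strands for the E-box CACGTG, the site of the network itself, and for GGGCGGGG and GGGTGGGG, GC-rich boxes of the kind that KLF and SP factors bind. An E-box was in the windows of MNT, MXD4 and MLX, and in 7.26% of all 35116 windows of the table. GGGCGGGG was in the windows of MYCL, MXD1 and MNT, and in 22.8% of all windows. GGGTGGGG was in a window of MAX and a window of MXI1, and in 11.1% of all windows. The E-boxes and the GGGCGGGG boxes of MXD1 and MNT are printed with 10 bases on either side, with the motif in capitals. MXD1 and MNT were picked with their RNA changes after KLF5 degradation known, so their boxes are examples only. The boxes of MYCL, MAX and MXI1 are not printed, and MXD1 and MNT had no GGGTGGGG. Whether KLF5 binds any of these boxes was not tested. A match is a run of letters and no measure of binding. The MXD1 window, chromosome 2, 69914859 to 69915158, belongs to a RefSeq start that lies inside the GENCODE gene, which begins at 69897688.
MNT, chr17:2401238-2401263, minus strand, 193 bases before the start: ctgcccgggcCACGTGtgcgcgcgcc
MXD4, chr4:2262332-2262357, minus strand, 238 bases before the start: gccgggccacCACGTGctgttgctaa
MLX, chr17:42567040-42567065, plus strand, 50 bases before the start: gggcgcgggtCACGTGggcacgccac
MXD1, chr2:69914976-69915003, plus strand, 123 bases before the start: acaagtgtagGGGCGGGGcattctttgg
MXD1, chr2:69915046-69915073, plus strand, 53 bases before the start: aaggggctggGGGCGGGGagatggtgag
MNT, chr17:2401211-2401238, minus strand, 168 bases before the start: cggatccgggGGGCGGGGccagcagcgc
MNT, chr17:2401154-2401181, minus strand, 111 bases before the start: gcggccctgcGGGCGGGGgctccggtcc
In MNT, a repressor that occupies MAX in many tissues, the E-box lay upstream of both GGGCGGGG boxes.

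The first question was which network genes each line expressed without drug. All-read CPM in the DMSO 4 h libraries were compared between the lines with edgeR's quasi-likelihood test, adjusted over all genes by Benjamini-Hochberg, and adjusted p under 0.05 was called. Of 10 genes, 6 differed, against 55.7% of all genes tested. MYCL, MAX and MXD1 were higher in T3M-4, and MXD4, MNT and MGA were higher in AsPC-1. Each line was handled in its own experiments, so line and experiment cannot be told apart in this comparison.

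MYC (chromosome 8, 127735434 to 127742951, plus strand) had 77.4, 114, 107, 139 and 128 CPM in AsPC-1 and 112, 92.6, 232 and 209.9 in T3M-4. The first T3M-4 experiment lay within the AsPC-1 range and the second above it. The log2 difference of all reads was 0.52 ± 0.29 (SE) and was not called (edgeR, adjusted p = 0.147). With NEG libraries in place of DMSO it was 1.02 and was called (edgeR, adjusted p = 0.00145). New MYC RNA gave the same picture, with a log2 difference of T>C reads of 0.77 ± 0.36 for DMSO (edgeR, adjusted p = 0.102) and 1.2 for NEG (edgeR, adjusted p = 0.000817).

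MYCL, the MYC relative first found in lung cancer, had 0.177 to 0.306 CPM in the 5 AsPC-1 libraries and 1.08, 0.866, 1.22 and 1.88 in T3M-4, a log2 difference of 2.51 ± 0.34 (edgeR, adjusted p = 0.000122). MAX had 36.2, 53.4, 35.7, 56.5 and 45.8 CPM in AsPC-1 and 80.8, 77.2, 107 and 110.1 in T3M-4, a difference of 1.04 ± 0.19 (edgeR, adjusted p = 0.000893). All libraries of T3M-4 lay above those of AsPC-1 for both genes.

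The repressors split. MXD1, an antagonist that rises as epithelial cells differentiate, had 5.28, 5.89, 5.88, 12.4 and 12.4 CPM in AsPC-1 and 41.7, 39.5, 18.3 and 17 in T3M-4, a log2 difference of 1.80 ± 0.38 (edgeR, adjusted p = 0.00219). MXD1 differed between experiments in both lines, in opposite order. MXD4 had 3.11 to 7.31 CPM in AsPC-1 and 0.634 to 1.21 in T3M-4, a difference of −2.38 ± 0.33 (edgeR, adjusted p = 0.000147). MNT had 10.4, 8.72, 13.1, 11.8 and 8.9 CPM in AsPC-1 and 4.99, 4.46, 4.01 and 3.71 in T3M-4, a difference of −1.30 ± 0.18 (edgeR, adjusted p = 0.000163). MGA, which also recruits a Polycomb complex, had 19.7 to 26.8 CPM in AsPC-1 and 11.1 to 15.1 in T3M-4, a difference of −0.79 ± 0.16 (edgeR, adjusted p = 0.00153). For MXD4, MNT and MGA no library of one line overlapped the other line. The share of all genes whose groups did not overlap was not counted, between the lines or in the comparisons below.

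MXI1, MLX and MLXIP did not pass in all reads. MXI1 had 141 to 211 CPM in AsPC-1 and 50.7, 59.4, 185 and 143 in T3M-4, so that the T3M-4 experiments lay apart. MLXIP, the sensor subunit, had 32.9 to 40.2 CPM in AsPC-1 and 29.7 to 35.2 in T3M-4, with a log2 difference of −0.09. In T>C reads 7 of 10 genes were called, against 48.4% of all genes: the same 6 and MXI1, at −0.95 (edgeR, adjusted p = 0.0137).

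**Figure D1:**
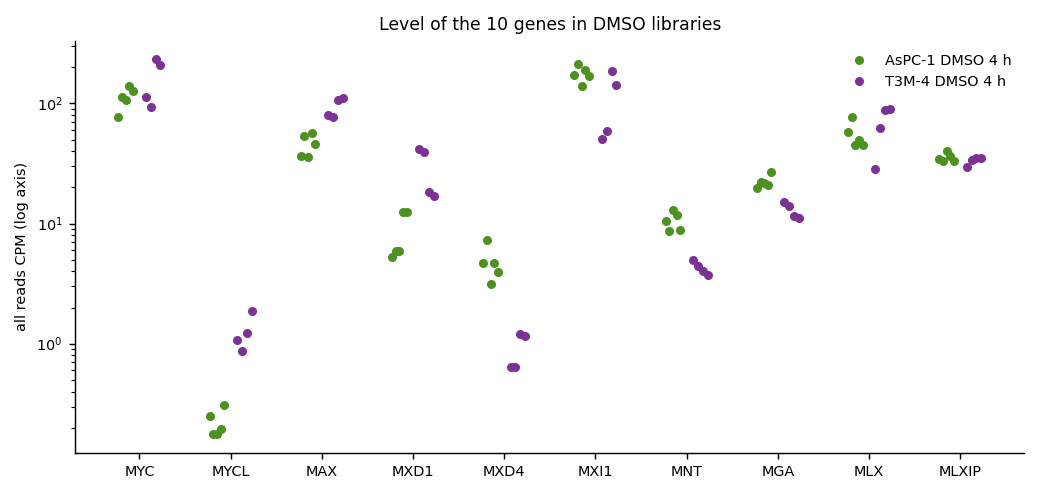
All-read CPM (log axis) of the 10 genes in the DMSO 4 h libraries, 1 point per library, AsPC-1 in green (n = 5) and T3M-4 in purple (n = 4). MYCL, MAX and MXD1 sit higher in T3M-4, MXD4, MNT and MGA sit higher in AsPC-1, and MYC, MXI1 and MLX spread widely within T3M-4.

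Related genes were read from lists on MYC biology. Of 30 genes of MYC-linked biosynthesis (nucleolar proteins, nucleotide and polyamine synthesis), 14 were higher and 0 lower in T3M-4 by T>C reads. Among them were NOP2, an rRNA methyltransferase (1.74), PA2G4 (1.63) and the ribosome assembly factor MRTO4 (1.43). Of all 13044 genes tested, 48.4% were called, 3498 higher and 2813 lower. The calls of the list thus ran 1 way, and those of all genes both ways. The list was not tested as a set, and line and experiment cannot be told apart. By all reads 13 of the list were higher and 1, the lactate dehydrogenase LDHA, was lower (−1.05). Of all 15464 genes 55.7% were called, 4718 higher and 3899 lower. The list's median log2 difference was 0.51 by T>C reads and 0.40 by all reads, against 0.11 and 0.09 for all genes. MYCN, the neural member of the MYC family, had 18 to 148 all-read counts per AsPC-1 DMSO 4 h library and 0 to 4 in T3M-4.

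The labelled share orders the genes by how much of their RNA was made in the last 2 h, although it also depends on how many T bases the counted stretch holds. MYC had 69.8, 71.2, 73.1, 68.4 and 69.2% of its reads labelled in AsPC-1 DMSO libraries, and 85.8, 85.6, 91.4 and 90.1% in T3M-4. Its mean, 70.3% ± 1.86 (SD, n = 5) and 88.2% ± 2.97 (n = 4), was exceeded by 0.0251% of 11976 genes in AsPC-1 and 0.0728% of 13730 genes in T3M-4. The median gene had 15.5% and 17.7%. MYC was thus among the most labelled genes of both lines.

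MXD1 came next among the 10 genes, with 46.8% ± 6.74 in AsPC-1 and 59.5% ± 5.11 in T3M-4, exceeded by 3.49% and 4.79% of genes. MNT followed with 30.4% ± 2.07 and 43.1% ± 3.99, then MGA with 29.9% ± 3.79 and 30.2% ± 5.37. In AsPC-1 MNT and MGA did not differ beyond their spread. MLX had 22.5% ± 3.25 and 23.0% ± 7.80, and MAX 14.0% ± 2.06 and 18.5% ± 3.69. MLXIP, at 13.2% and 14.8%, and MXI1, at 12.9% and 13.6%, lay within each other's spread, and MXD4 was lowest with 5.14% and 5.22%. MYCL had 34.1% ± 6.73 in T3M-4 and too few reads for a share in AsPC-1. The order from MYC through MXD1 to MNT was the same in both lines.

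**Figure D2:**
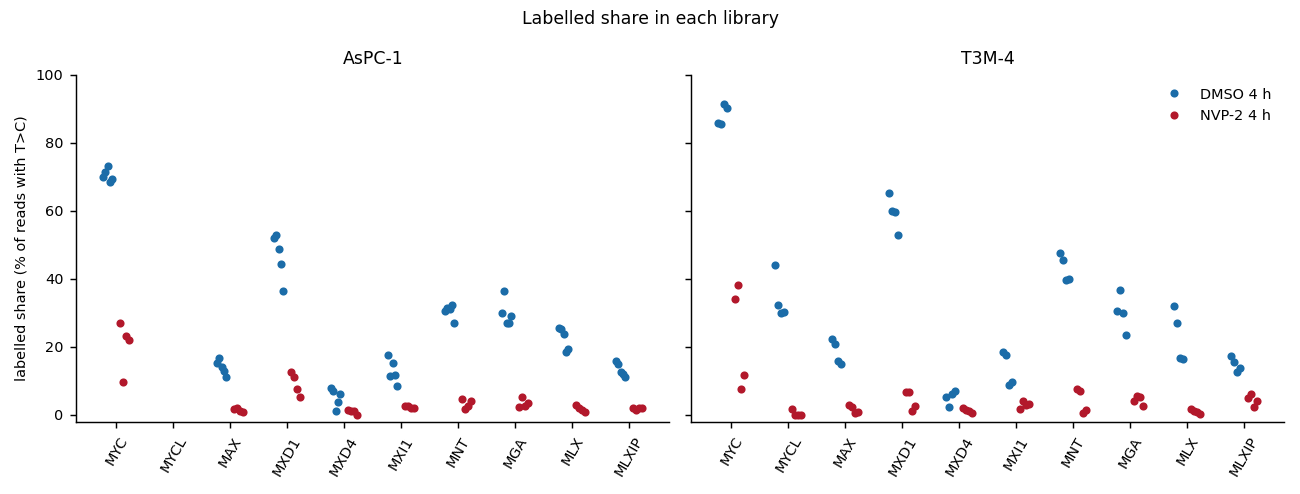
Percentage of each gene's reads that carried a T>C conversion, 1 point per library, with DMSO 4 h in blue and NVP-2 4 h in red, and 1 panel per line. MYC is highest in DMSO in both lines, and with NVP-2 its libraries span 9.55 to 27.1% for AsPC-1 and 7.68 to 38.1% for T3M-4. MYCL is left out of the AsPC-1 panel because of its low reads.

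KLF5 degradation was followed by dTAG against NEG at 4 h. By T>C reads 0 of 9 genes tested in AsPC-1 passed (MYCL had too few reads), against 2.4% of all genes, and 0 of 10 in T3M-4, against 0.834%. With the numbered pair as a block, MYC and MNT were called in AsPC-1 and MXD1 in T3M-4. That block also called more of all genes, 848 in place of 281 in AsPC-1 and 299 in place of 112 in T3M-4. By T>C reads MNT was lower after dTAG in every numbered pair of both lines, MYC was higher in every pair of AsPC-1, and MXD1 was lower in every pair of T3M-4. MAX and MLXIP were higher in every pair of T3M-4. How many of all genes moved 1 way in every pair was not counted. The pairs come from 3 experiments in AsPC-1 and 2 in T3M-4, so they are not independent of each other. In AsPC-1 the pairing by number is also uncertain. There a dTAG library correlated best with the NEG library of its own number in 4 of 10 cases.

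In AsPC-1 new MYC RNA was 579 at the lowest, 1043 at the median and 1495 CPM at the highest in 10 dTAG libraries, against 327, 603 and 992 in 10 NEG libraries. The groups overlapped, with 6 of the dTAG libraries above all NEG libraries, and MYC was higher in 10 of 10 numbered pairs. The log2 change was 0.68 ± 0.19 (edgeR, adjusted p = 0.0655). With the numbered pair, an uncertain pairing in this line, as a block it was 0.67 and was called (edgeR, adjusted p = 0.0111). It was also called with DESeq2 (adjusted p = 0.0221). The MYC change was also called with terms for the experiment and the 3 library sets, which were made from these same reads (edgeR, adjusted p = 0.00743). It was not called with RLE in place of TMM scaling, without the filter on low counts, or with T>C reads scaled by all reads. By experiment the change was 0.78, 0.28 and 0.66, called in none of them alone.

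All MYC reads were higher in 8 of 9 pairs: 79.6, 135 and 182 CPM in 9 dTAG libraries (lowest, median and highest) against 50.4, 90.2 and 139 in NEG, a log2 change of 0.55 ± 0.18 (edgeR, adjusted p = 0.286), and 0.61 with the pair as a block (edgeR, adjusted p = 0.0452). One of the 10 dTAG libraries, 3.1, had no usable column of all reads. The labelled share of MYC went the other way, from 54.1 to 72.6% in NEG to 51 to 63.9% in dTAG. On the log2 odds scale (log2 of T>C over other reads, tested with limma) this fall was −0.47 ± 0.15 (adjusted p = 0.0196).

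MYC shared that fall with many genes. MYC, MAX, MNT, MLX and MLXIP, 5 of 9 genes tested, had a lower labelled share after dTAG in AsPC-1, and so did 39.7% of all genes, with a median of −0.33 for the 9 genes and −0.33 for all genes. The share over all reads of a library was 7.58 to 8.67% in dTAG and 7.93 to 10.1% in NEG. Without experiment 1 the count was 0 of 9.

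MNT had 12.6, 21.3 and 29.8 CPM of T>C reads in dTAG (lowest, median and highest of 10) and 13.9, 28.0 and 51.6 in NEG. The groups overlapped, and MNT was lower after dTAG in 10 of 10 pairs. The log2 change was −0.59 ± 0.23 (edgeR, adjusted p = 0.245). With the uncertain pair as a block it was −0.54 and was called (edgeR, adjusted p = 0.0086). The MNT change was also called with terms for the experiment and the library sets, which were made from these same reads (edgeR, adjusted p = 0.0026). Experiment 2 showed the least, at −0.10, against −0.65 and −0.69 in experiments 1 and 3. All MNT reads had a log2 change of −0.44 ± 0.20 (edgeR, adjusted p = 0.591), or −0.41 with the block (edgeR, adjusted p = 0.0305). Its labelled share had the largest change of the 9 genes, −0.54 ± 0.09 (limma, adjusted p = 0.000705), with 19.1 to 26.1% in dTAG and 24.2 to 32.0% in NEG.

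The other 7 genes tested in AsPC-1 had T>C changes between −0.16 and 0.19. MXD1 had 17.9 to 33.3 CPM after dTAG and 17.8 to 43.6 in NEG, and MAX 68.2 to 120.2 and 57.1 to 117. MXI1 ranged widely within a group, from 87.6 to 599 after dTAG and from 113 to 630.2 in NEG, as did the low MXD4, from 0.752 to 7.04 and from 0.87 to 5.72. All 7 had overlapping groups. In all reads 0 of 10 genes were called, against 0.797% of all genes.

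In T3M-4 new MXD1 RNA was 99.8 and 111 CPM after dTAG in experiment 1 and 46.4 and 50 in experiment 2, against 179.7 and 152, then 107 and 110.1, in NEG. Within each experiment both dTAG libraries lay below both NEG libraries. The log2 change was −0.83 ± 0.32 (edgeR, adjusted p = 0.526), and −0.91 with the pair as a block, which was called (edgeR, adjusted p = 0.026). In experiment 2 alone it was −1.16 and called (edgeR, adjusted p = 0.0472), and in experiment 1 alone −0.64.

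MNT in T3M-4 had 9.34 and 11.6, then 6.17 and 7.92 CPM after dTAG, against 17.2 and 19, then 10.9 and 14.6, in NEG. It was lower in 4 of 4 pairs, with a log2 change of −0.82 ± 0.27 (edgeR, adjusted p = 0.381) that was not called with the block either (edgeR, adjusted p = 0.0917). All MNT reads were 3.01, 3.55, 2.34 and 2.8 CPM after dTAG and 4.91, 5.98, 3.89 and 4.65 in NEG, groups that did not overlap, with a change of −0.73 ± 0.20 (edgeR, adjusted p = 0.784). By T>C reads MNT was lower in every pair of both lines, and by all reads it was lower in 8 of 9 pairs of AsPC-1 and 4 of 4 of T3M-4.

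MYC in T3M-4 had 356 and 666, then 1606 and 2275 CPM after dTAG, against 1271 and 786, then 1923 and 1798, in NEG. In T3M-4, 3 of the 4 dTAG libraries lay below their numbered NEG library and library 2.2 lay above. The log2 change was −0.24 ± 0.50, and −1.0 in experiment 1 and 0.07 in experiment 2. The difference between the experiments, 1.07 ± 0.45, was not called (edgeR, adjusted p = 1.00), nor was the MYC change in T3M-4 less that in AsPC-1, −0.91 ± 0.47 (edgeR, adjusted p = 0.882).

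MAX in T3M-4 had 312 and 150.2, then 194 and 118 CPM after dTAG, against 126 and 117, then 158 and 116, a change of 0.58 ± 0.28 that was higher in 4 of 4 pairs and not called (edgeR, adjusted p = 0.76). MLXIP was also higher in 4 of 4 pairs, by 0.24 ± 0.28. MYCL, at 0.82 to 3.91 CPM after dTAG and 1 to 4.97 in NEG, and MXD4, at 0.623 to 1.81 and 0.274 to 0.994, were too low to read. For T3M-4, all reads gave 0 of 10 genes against 0.0191% of all genes, and the labelled share 0 of 10 against 0.00756%. Across lines and across T3M-4 experiments, 0 genes of the network differed in their response to dTAG, against 0.0426% and 0% of all genes. For the experiments 645 genes had an unadjusted p under 0.05.

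**Figure D3:**
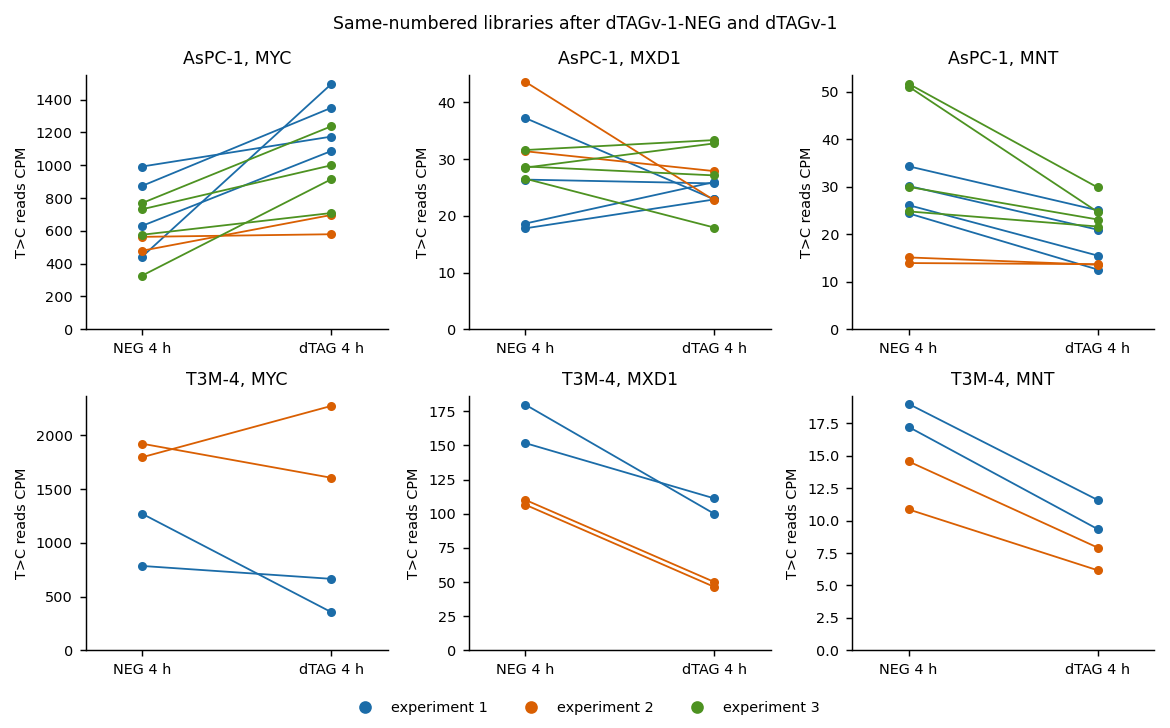
T>C CPM (linear axis from 0) of MYC, MXD1 and MNT in NEG and dTAG libraries at 4 h, with lines joining libraries of the same number and colours for the experiments. In AsPC-1 every MYC line rises and every MNT line falls, and in T3M-4 every MXD1 and MNT line falls, while the MYC lines go both ways.

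Few genes of the MYC-related lists passed with KLF5 degradation. Of 30 biosynthesis genes 1 passed in AsPC-1, ODC1, the first enzyme of polyamine synthesis and a long-known MYC target, at 0.54 ± 0.12 (edgeR, adjusted p = 0.0152), and 0 in T3M-4. Of all genes 2.4% and 0.834% were called in either direction, so that 1 call is near that background. In AsPC-1 54 of all genes were called higher and 227 lower. The list's median change was 0.09 in AsPC-1 against 0.03 for all genes, and 0.07 in T3M-4 against 0.01. Among 15 genes of MYC turnover and cofactors, 6 PRC1.6 subunits (the Polycomb complex that holds MGA), 4 SIN3-HDAC corepressor genes and the MondoA targets TXNIP and ARRDC4, 0 passed in either line, beside those same shares.

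RUVBL1/2 are ATPases found in several chromatin complexes, including the TIP60 complex that MYC recruits, and CB-6644 blocks their activity. After 4 h with CB-6644, 0 of 9 genes in AsPC-1 and 0 of 10 in T3M-4 passed by T>C reads, and the background was 0% of all genes in both lines. Unadjusted p under 0.05 was reached by 482 and 569 genes in all, and DESeq2 called 1 and 7. All reads gave 0 genes of the network against 0% in AsPC-1 (267 genes at an unadjusted p under 0.05, 6 by DESeq2) and 0.0127% in T3M-4. The labelled share gave 0 against 0.0338% and 0% (363 genes at an unadjusted p under 0.05 in T3M-4).

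MYC in AsPC-1 had 591, 1113 and 1084, then 562 and 809.8 CPM of T>C reads with CB-6644, against 518, 734 and 723, then 1043 and 943, with DMSO. The experiments went opposite ways, 0.50 and −0.55, and the change over both was 0.07 ± 0.24. In T3M-4 MYC had 419 and 384, then 1490.0 and 2204, against 713 and 624.9, then 2086 and 1888, a change of −0.24 ± 0.59, with −0.75 in experiment 1 and −0.11 in experiment 2. Within T3M-4 the experiments differed far more than the treatments. The experiment difference of the T3M-4 change, 0.63 ± 0.28, was not called (edgeR, adjusted p = 0.52).

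MNT in AsPC-1 had 38.6, 25.2 and 23.6, then 15 and 15.6 CPM with CB-6644, against 30.4, 24.8 and 37.7, then 41.8 and 25.6, with a change of −0.09 in experiment 1 and −1.15 in experiment 2. Its labelled share was lower by 0.50 ± 0.11 on the log2 odds scale (limma, adjusted p = 0.0813). MLXIP was 41 to 61.1 CPM against 39.2 to 52, and MXI1 232 to 316 against 150.5 to 288. None of these was called.

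In T3M-4, MLX, the partner of MLXIP, had 62 and 56.3, then 98.8 and 115 CPM with CB-6644, against 67.2 and 133, then 144 and 146, with DMSO. It was lower in 4 of 4 numbered pairs, whose pairing is uncertain, with a change of −0.56 ± 0.31. MAX ranged from 143 to 273 against 126 to 166, with library 1.2 alone above the DMSO libraries. MXD1 had 125 and 157, then 101 and 93.1, against 202 and 187, then 107 and 89.8, lower in experiment 1 and within the DMSO range in experiment 2. Between lines 0 genes of the network differed in the response, against 0% of all genes (511 at an unadjusted p under 0.05), and between T3M-4 experiments 0, against 0% (1404 at an unadjusted p under 0.05).

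After 12 h with CB-6644 in AsPC-1, 0 of 9 genes passed by T>C reads and 0 of 10 by all reads, against 0% of all genes in each (473 and 325 genes at an unadjusted p under 0.05, 26 and 18 by DESeq2), and 0 by labelled share, against 0.00808%. The 9 T>C changes were all negative, with a median of −0.25 against −0.01 for all genes. MNT had 12.3, 10.1, 30.3 and 27 CPM with CB-6644 and 26.3, 23.6, 47.7 and 49.3 with DMSO, groups that overlapped, with a log2 change of −0.88 ± 0.41. Within both groups libraries 3 and 4 lay above libraries 1 and 2. MYC had 773, 578, 251 and 363 CPM against 1138, 409, 440.3 and 637, a change of −0.42 ± 0.41. MXI1, a MAX partner, had 248, 271, 87.5 and 73.2 against 821, 165, 155 and 192, a change of −0.97 ± 0.63 in which DMSO library 1 stood far above the other 7.

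NVP-2 inhibits CDK9, the kinase that releases paused RNA polymerase II, and served as the study's reference for loss of transcription. The labelled share fell in all genes of the network that could be tested, 9 of 9 in AsPC-1 against 95.9% of all genes, and 10 of 10 in T3M-4 against 91.8%. The medians of the network were −3.30 and −4.36 on the log2 odds scale, against −3.42 and −3.59 for all genes. The share over a whole library was 1.35 to 1.91% with NVP-2 and 9.36 to 10.6% with DMSO in AsPC-1, and 1.8 to 2.8% and 11.1 to 14.1% in T3M-4.

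CPM of T>C reads are scaled to the new RNA of a library, which NVP-2 lowered, so a CPM change is relative to other genes. Scaled by all reads instead, the median change of all genes was −3.26 in AsPC-1 and −3.09 in T3M-4, and on that scale all 9 genes tested were called lower in each line. For dTAG and CB-6644 the corresponding shift was −0.22 and −0.19 in AsPC-1, and 0.11 for dTAG in T3M-4. On the CPM scale 3 of 9 genes passed in AsPC-1, all lower, against 30.5% of all genes, and 6 of 9 in T3M-4, against 26.7%, 4 lower and 2 higher. AsPC-1 NVP-2 and DMSO 4 h libraries carry different batch labels, and drug and batch cannot be told apart in that contrast, so values against controls of the NVP-2 batch are given as well.

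New MYC RNA in AsPC-1 was 133, 45.8, 199 and 105 CPM with NVP-2 and 432, 608, 597, 867 and 789 with DMSO. The groups lay well apart, with a log2 change of −2.45 ± 0.39 (edgeR, adjusted p = 0.000882), 0.183 of the DMSO level. Against NEG 4 h and DMSO 12 h libraries of the same batch label it was −1.98 (edgeR, adjusted p = 0.00704) and −2.07 (edgeR, adjusted p = 0.00982). All MYC reads fell from 70.1, 102, 98.5, 127 and 116 to 8.1, 6.51, 11.5 and 5.57 CPM, a change of −3.70 ± 0.28 (edgeR, adjusted p = 5.969e-05).

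In T3M-4 new MYC RNA was 270.1 and 219 CPM with NVP-2 in experiment 1 and 70.4 and 60.1 in experiment 2, against 562 and 483, then 1693 and 1521, with DMSO. The log2 change was −2.78 ± 0.60 (edgeR, adjusted p = 0.00739), with −1.09 in experiment 1 (edgeR, adjusted p = 0.0315) and −4.59 in experiment 2 (edgeR, adjusted p = 0.00436). The experiment with the higher MYC under DMSO had the lower MYC under NVP-2. The difference between the experiments, −3.53 ± 0.33, was called (edgeR, adjusted p = 0.0383), 1 of the network's genes, against 0.141% of all genes. All MYC reads, 17.3, 15.3, 12.7 and 8.47 CPM against 107, 91.2, 232 and 211, changed by −3.58 ± 0.38 (edgeR, adjusted p = 0.00132), and there the experiment difference of −1.80 was not called (edgeR, adjusted p = 0.333).

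**Figure D4:**
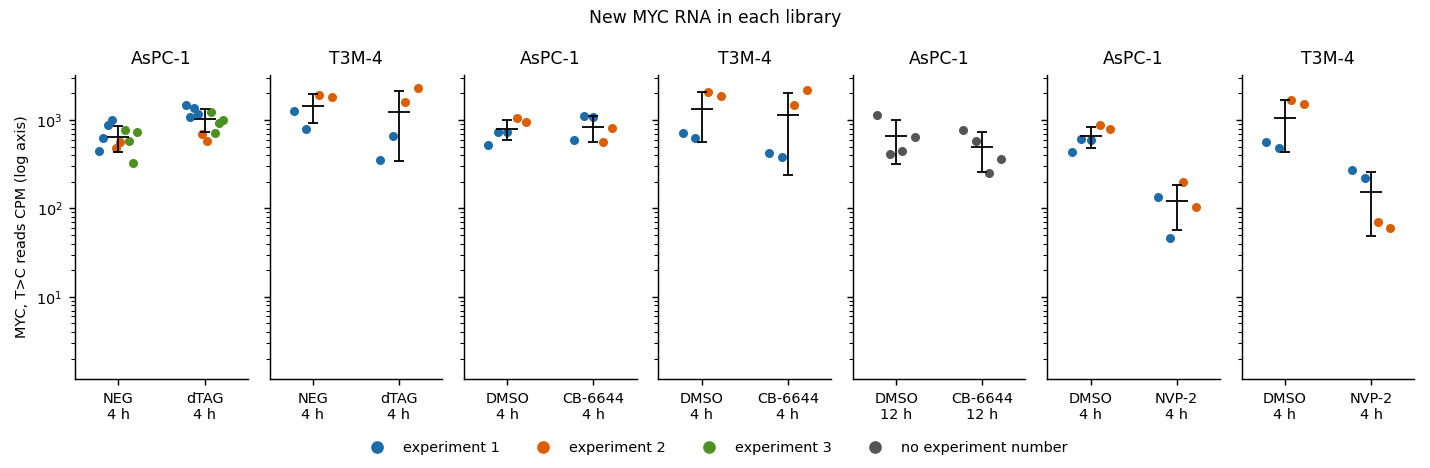
T>C CPM of MYC (log axis) in each treated and control group, with 1 panel for each of 7 comparisons, 1 point per library coloured by experiment, horizontal lines for the group mean and bars for the SD. With NVP-2 both lines fall clear of DMSO, and in T3M-4 the experiments separate in every group.

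The MAX-binding repressors differed in what was called. MNT in AsPC-1 had 10.6, 4.95, 6.09 and 10.5 CPM with NVP-2 and 25.4, 20.5, 31.1, 34.7 and 21.4 with DMSO, a change of −1.73 ± 0.34 (edgeR, adjusted p = 0.00307) that was −1.97 and −1.83 against the batch-matched NEG 4 h and DMSO 12 h controls, called in both. In T3M-4 MNT was 8.15 and 7.68, then 0.67 and 2.65, against 13.9, 12.3, 12.6 and 11.9, groups that did not overlap, at −1.38 ± 0.63 (edgeR, adjusted p = 0.13).

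MXD1 in T3M-4 had 51.5 and 37.8, then 5.7 and 9.08 CPM with NVP-2, against 159 and 144, then 87.2 and 72.4, a change of −2.14 ± 0.63 (edgeR, adjusted p = 0.0285), and −1.76 and −3.40 in experiments 1 and 2. In AsPC-1 it had 25.3, 20.2, 23.6 and 10.5 against 21.9 to 50.2, a change of −0.66 ± 0.37 that was not called. All MXD1 reads in AsPC-1, 2.28 to 4.16 against 4.78 to 11.3 CPM, changed by −1.32 ± 0.34 (edgeR, adjusted p = 0.0309), called in 5 of 9 fits that left out 1 library and not against the batch-matched DMSO 12 h controls (edgeR, adjusted p = 0.15).

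MXI1 rose relative to other new RNA in T3M-4. It had 64.4 and 185, then 523 and 551 CPM with NVP-2, against 54.3 and 64, then 128 and 111, with DMSO, a change of 1.89 ± 0.60 (edgeR, adjusted p = 0.0387). Scaled by all reads it was lower instead, at −1.29. The call held in 2 of 8 fits that left out 1 library, with adjusted p up to 0.103 (edgeR), and the change was 1.08 in experiment 1 (edgeR, adjusted p = 0.15) and 2.2 in experiment 2 (edgeR, adjusted p = 0.0068). All MXI1 reads had a change of 0.75 ± 0.53 that was not called. In AsPC-1 the T>C change was 0.38 ± 0.24.

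MGA had 27.6, 64.3, 20.3 and 33.6 CPM with NVP-2 and 44.6 to 70 with DMSO in AsPC-1, and 15.9 to 38.2 against 20.9 to 31.2 in T3M-4, called in neither line. MAX had 42.3 to 72.1 against 38.2 to 66.8 in AsPC-1, a change of 0.08. In T3M-4 MAX was 116 and 97.6, then 45.2 and 58.3, against 106 and 97.6, then 135 and 132, with changes of 0.08 in experiment 1 and −1.33 in experiment 2, which was called there alone (edgeR, adjusted p = 0.036). The experiment difference for MAX, −1.45 ± 0.37, was not called (edgeR, adjusted p = 0.124).

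On the CPM scale MLX was lower in both lines and its partner MLXIP higher in T3M-4. MLX had 37.8, 27.6, 60.1 and 23.2 CPM with NVP-2 and 117, 144, 81.9, 84.6 and 77.9 with DMSO in AsPC-1, a change of −1.44 ± 0.32 (edgeR, adjusted p = 0.00627). That call was lost against the batch-matched DMSO 12 h controls, at −1.22 (edgeR, adjusted p = 0.0574). In T3M-4 MLX had 33.4 and 21.8, then 59.3 and 17.4, against 53 and 103, then 117 and 117, a change of −1.57 ± 0.43 (edgeR, adjusted p = 0.0212), called in 4 of 8 fits that left out 1 library.

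MLXIP in T3M-4 had 75.7 and 91.3, then 76.1 and 97.2 CPM with NVP-2, against 30.2, 31.9, 34.9 and 39, groups that lay apart in both experiments. The change was 1.32 ± 0.26 (edgeR, adjusted p = 0.00437), and 1.44 and 1.26 in experiments 1 and 2. Scaled by all reads it was lower, at −1.65, and all MLXIP reads had a change of 0.25 that was not called. In AsPC-1 it had 30.2, 42.9, 67 and 87.1 against 32.7 to 43.4, a change of 0.57 ± 0.30 that was not called and was −2.70 scaled by all reads. TXNIP, the MondoA target that limits glucose uptake, fell in both lines by T>C reads, by 2.66 ± 0.37 in AsPC-1 (edgeR, adjusted p = 0.000434) and by 3.59 in T3M-4 on the log2 scale, and ARRDC4 fell by all reads, by 2.50 and 1.79.

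MYCL in T3M-4 had 85, 36, 63 and 120 T>C counts with DMSO and 3, 0, 0 and 0 with NVP-2. The ratio of the summed counts per T>C read was 0.0473, with an exact 95% interval from 0.00971 to 0.14 that covers counting error only, and edgeR called MYCL lower (adjusted p = 0.0248), in 4 of 8 fits that left out 1 library. Over the libraries of both lines the T>C counts of MYCL were odd in 16.1%, zeros included, against 41.9% or more for the other 9 genes. In AsPC-1 the odd counts were 3 in DMSO 4 h library 2.2 and 5 in NEG library 2.2, so the scarcity of odd counts lies mainly in that line. All MYCL reads in T3M-4 were 1.05, 1.07, 0.977 and 1.41 CPM against 1.03, 0.853, 1.23 and 1.89, so new MYCL RNA was lost while the RNA present overlapped. In AsPC-1 all MYCL reads were 0.011 to 0.0616 CPM against 0.159 to 0.278, a change of −2.40 ± 0.60 (edgeR, adjusted p = 0.0271), called in 4 of 9 fits that left out 1 library and not against the batch-matched DMSO 12 h controls (edgeR, adjusted p = 0.234).

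In all reads 4 of 10 genes were called in AsPC-1, against 11.8% of all genes: MYC, MYCL, MXD1 and MNT, all lower. MNT fell by 1.52 ± 0.21 (edgeR, adjusted p = 0.00115), from 7.84 to 12 CPM with DMSO to 2.93 to 3.77. In T3M-4 MYC was the 1 gene called, against 5.16%, and MNT, at −0.79 ± 0.20, missed (edgeR, adjusted p = 0.053). Between the lines 0 network genes differed in their T>C response to NVP-2, against 0.851% of all genes, with differences (T3M-4 minus AsPC-1) of −0.35 ± 0.70 for MYC, 1.48 ± 0.65 for MXI1 and −1.51 ± 0.74 for MXD1. Drug and batch label coincide in AsPC-1, so these differences between the lines also carry that batch difference.

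**Figure D5:**
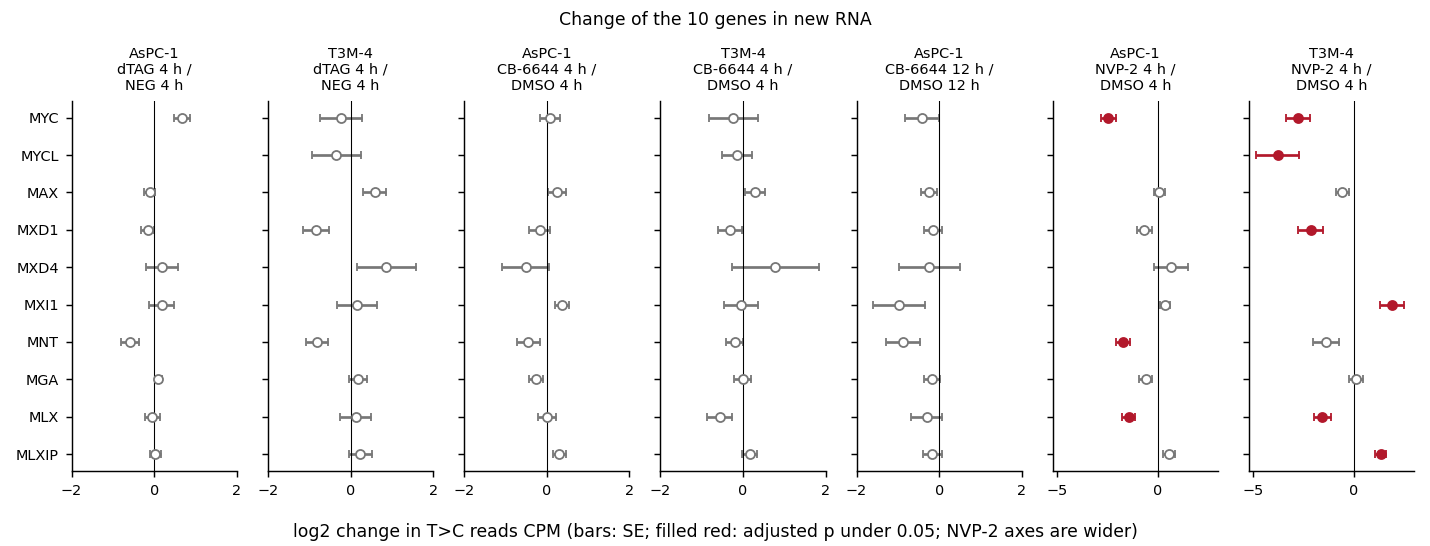
Log2 change of T>C reads of each gene in each comparison, with bars for the SE and filled red points for adjusted p under 0.05. The NVP-2 panels have a wider axis, and genes with too few reads are missing. Red points stand in the NVP-2 panels alone, 3 in AsPC-1 and 6 in T3M-4.

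Genes of the wider pathway were also called in both directions with NVP-2 by T>C CPM. Of 30 biosynthesis genes 1 was higher and 7 lower in AsPC-1, and 2 higher and 8 lower in T3M-4, against 30.5% and 26.7% of all genes called in either direction, so that the counts were near the background. The list's median was −0.40 and −0.52, against −0.05 and −0.12 for all genes. NOP56, a snoRNP protein, fell by 2.55 and 2.85 on the log2 scale, the GTPase GNL3 by 2.1 in AsPC-1, and the purine enzyme PAICS rose by 2.18 in T3M-4. Of 15 turnover and cofactor genes 1 was higher and 3 lower in AsPC-1, and 4 higher and 3 lower in T3M-4, with medians of 0.02 and 0.17 beside the same shares and medians of all genes. The MYC ubiquitin ligase HUWE1 was higher in both, by 1.14 and 1.06, and AURKA, a kinase that stabilises MYC proteins, lower in both, by −1.53 and −1.38. Of 6 PRC1.6 subunits 3 were lower in AsPC-1 and 1 in T3M-4, E2F6 in both, with medians of −0.97 and −0.22 beside those same values of all genes. These rises are relative to the other new RNA of the library.

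NEG against DMSO at 4 h tested whether the inactive analogue itself moved the genes. By T>C reads 0 network genes passed in either line, against 0% of all genes (878 genes in AsPC-1 and 255 in T3M-4 at an unadjusted p under 0.05, 18 and 2 by DESeq2). MYC had a log2 change of −0.28 ± 0.23 in AsPC-1 and 0.13 ± 0.42 in T3M-4. The largest was MAX in AsPC-1, at 0.53 ± 0.20 (edgeR, adjusted p = 0.65). MXD1 was lower in 5 of 5 numbered pairs in AsPC-1, whose pairing is uncertain, at −0.41.

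Over the 7 AsPC-1 groups, all MYC reads scaled within the line were highest in dTAG (134 ± 34.1 CPM, SD, n = 9), then DMSO 4 h (110.2 ± 23.4, n = 5), CB-6644 4 h (105 ± 31.4, n = 5), DMSO 12 h (93.4 ± 44.1, n = 4), NEG (90.9 ± 27.1, n = 10) and CB-6644 12 h (71.0 ± 30.0, n = 4), with neighbours within each other's spread. NVP-2 was lowest at 8.50 ± 2.77 (n = 4), apart from all of them. In T3M-4 the means were 198 ± 60.2 in NEG, 176 ± 116 in dTAG, 169 ± 74.9 in DMSO and 139.8 ± 99.0 in CB-6644, again within each other's spread, and 13.9 ± 4.43 in NVP-2 (n = 4 each).

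The genes whose T>C pattern over the 12 groups was most like that of MYC were CITED2, TOPORS and LTV1, with Pearson correlations of 0.995, 0.992 and 0.992 among 6921 genes. Of the 7 other network genes with a mean of at least 10 T>C CPM in each line, which MYCL and MXD4 missed, MLX followed MYC most closely, at 0.977 (rank 100 of the 6921), then MNT (0.893, rank 2110), MGA (0.88), MXD1 (0.864) and MAX (0.815), while MXI1 had −0.1 and MLXIP −0.258. The 12 points share the fall with NVP-2 in 2 of them, so these correlations describe that fall in the main.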

How the data were processed

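SLAM-seq libraries (62, in 12 groups) were compared. The authors sequenced 3′ ends, aligned to hg38 and counted reads with slamdunk over GENCODE v44 3′UTR exons. The deposited values are raw counts per gene of T>C reads and of all reads, with no spike-in. The all-reads column of AsPC-1 dTAG library 3.1 was left out, since 8047 genes had more T>C reads than it gave. No unnamed column held values.

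Counts were tested per contrast in R 4.3.3 with edgeR 4.0.16 (filterByExpr, TMM, glmQLFit and glmQLFTest). CPM are TMM-scaled within a contrast. The labelled share was tested with limma 3.58.1 on log2((T>C + 0.5)/(other reads + 0.5)) in genes with 20 or more reads in every library. P-values were adjusted over all genes, and adjusted p under 0.05 was called. DESeq2 1.42.0, other scalings, filters, blocks and left-out libraries were alternatives.

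Residuals of same-numbered libraries correlated above 0.1 in every pair for dTAG with NEG in AsPC-1 (0.205 to 0.669, 10 pairs) and T3M-4 (0.4 to 0.72, 4 pairs). They also did so for CB-6644 in T3M-4 and for NEG with DMSO, and in these contrasts the numbers were taken as pairs. Only group means were removed from the residuals, so libraries of the same experiment can correlate without being pairs. A dTAG library correlated best with the NEG library of its own number in 4 of 10 cases in AsPC-1 and 4 of 4 in T3M-4. For CB-6644 in T3M-4 it was 1 of 4, and for NEG with DMSO 4 of 5 in AsPC-1 and 1 of 4 in T3M-4. In the contrasts not taken as pairs it was 3 of 5 for CB-6644 at 4 h and 2 of 4 at 12 h in AsPC-1. With NVP-2 it was 3 of 4 in AsPC-1 and 2 of 4 in T3M-4. The pairing is therefore uncertain outside dTAG in T3M-4.

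All 10 members were named, with the 3 genes most like MYC, and listed genes past the threshold as examples. The members and lists were chosen with earlier results of these data known.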

Additional observations from a re-analysis of the deposited data

Results flagged for a closer look

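A library stood far from the others of its group in 9 of 130 groups of 4 to 10 libraries, by the gap to its nearest neighbour in T>C CPM, where chance gives about 1 in 20. MGA had 86.1 CPM in AsPC-1 dTAG library 3.2, and MXD4 1.81 in T3M-4 dTAG library 2.2. In AsPC-1 CB-6644 4 h library 1.1, MAX had 47.9 and MLXIP 41.0, both the lowest of their group. MAX had 273 in T3M-4 CB-6644 library 1.2, the highest, and MLX 67.2 in T3M-4 DMSO library 1.1, the lowest. In AsPC-1 DMSO 12 h library 1, MXI1 had 821 and MLX 202, both the highest. MYCL had 0.789 in T3M-4 NVP-2 library 1.1, where the other 3 libraries of the group had 0 counts.

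The T>C change of MYC with NVP-2 in T3M-4 differed between the experiments by −3.53 ± 0.33 (experiment 2 minus 1; edgeR, adjusted p = 0.0383), with 2 libraries per group and experiment. In all reads the difference was not called.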

How the results depend on the processing

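Of 3381 values of the 10 genes under the alternatives, 3289 kept their direction, where called, and their side of the threshold, 51 lost a call, 34 gained one and 7 turned. The 7 were T>C changes with NVP-2 scaled by all reads, MAX −3.16, MXD4 −2.51, MXI1 −2.83 and MLXIP −2.70 in AsPC-1 and MXI1 −1.29, MGA −2.92 and MLXIP −1.65 in T3M-4. That scaling gave 9 called T>C genes in place of 3 in AsPC-1 with NVP-2, and 1 in place of 0 with dTAG, MNT.

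For dTAG in AsPC-1, 0 T>C calls became 1 with DESeq2, 2 with the replicate block, 1 with the experiment block and 2 with the set and experiment block, and 0 all-read calls became 2 with the replicate block and 2 with the set and experiment block. In T3M-4, 0 became 1 with the replicate block, 1 with the experiment block and 1 in experiment 2 alone. Over all genes the replicate block called 848 in place of 281 T>C changes in AsPC-1 and 299 in place of 112 in T3M-4. Where the numbers were taken as pairs, it changed no other call of the 10 genes.

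With NVP-2 the numbers were not taken as pairs (lowest correlation −0.209 in AsPC-1 and 0.0873 in T3M-4), nor were they for CB-6644 in AsPC-1 (0.00167 at 4 h and 0.0691 at 12 h). All-read calls in AsPC-1 went from 4 to 2 with the replicate block, the set and experiment block, or DMSO 12 h controls of batch 2, and those in T3M-4 from 1 to 3 with DESeq2 and 4 with the replicate block. The experiment difference of MYC, 1 call by T>C reads, gave 0 by all reads. The causes were not tested.

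Leaving out 1 library at a time gave 2 to 4 all-read calls in AsPC-1 with NVP-2 (2 without NVP-2 2.2, DMSO 2.1 or DMSO 2.2), 3 to 4 T>C calls there, and 3 to 6 T>C calls in T3M-4 (3 without any 1 DMSO library). Leaving out an experiment gave 0 to 5 share calls for dTAG in AsPC-1, 0 without experiment 1. The line comparisons gave 6 to 7, and the other counts did not move. The experiment block and the experiments alone were not run for NVP-2 in AsPC-1, whose groups carry different batch labels. The set and experiment block and the batch 2 controls were chosen after seeing the data.

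Spike-ins and unlabelled libraries were not used here, which leaves the conversion background and new RNA per cell unknown. MYCL and MXD4 rest on few T>C reads.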
